A study of Mus musculus with 2 samples.

Results

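The gene Hes1 and 7 other genes of the Notch pathway (Hey1, Notch1, Notch2, Rbpj, Nrarp, Adam10 and Adam17) were examined in single cells of the mouse colon lamina propria, the connective tissue beneath the gut epithelium. They are 8 of the 32285 genes in the files, and all 8 were present. Hes1 was chosen because an earlier look at these same files had placed it among the genes with the highest ratio between the libraries in macrophages, so its macrophage values describe the choice and were not tested. The others were picked by name to ask whether the higher Hes1 level came with higher levels of other Notch genes. The study deleted Runx3, a transcription factor of blood cells, with a Cre recombinase driven by the Lyz2 promoter, which is active in macrophages, monocytes and neutrophils, and compared these mice with floxed controls without Cre, so that the floxed allele is shared by both groups. It describes a pooled sample of colons from male mice aged 8 weeks, with an n of 6 that is not split by group. The labels give CD11b+ cells of the gut for both groups, and there was 1 library per group, titled Runx3_fl and Runx3. The titles do not say which library carried Cre, and each direction given here is therefore that of 1 labelled library against the other and not of a genotype.

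Notch receptors are surface proteins that are opened by ligands on neighbouring cells. The sheddases ADAM10 and ADAM17 and then the gamma-secretase complex cut the receptor, and the freed intracellular part enters the nucleus, where it joins the DNA-binding protein RBPJ and turns on targets such as Hes1, Hey1 and Nrarp. HES and HEY proteins are repressors of transcription, and Notch signalling is known for its part in the maturation of T cells, of marginal zone B cells and of some dendritic cells and gut macrophages. Hes1 is also known to respond to other signals than Notch.

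The promoters of Rbpj and Nrarp are printed as examples. The Rbpj window held the core letters bound by RBPJ. The Nrarp window, like that of Adam10, held the letters of an E-box, a sequence bound by factors of the same class as HES and HEY proteins. RefSeq windows from 250 bases before to 50 bases after the start were matched for 6 of the 8 members, on build GRCm38.p6. Hes1 and Hey1 had no window. Capitals mark the matches, which were searched on both strands. The RBPJ core is TGGGAA, which reads as its reverse complement TTCCCA on the opposite strand, and the E-box is the palindrome CACGTG.
Rbpj, chr5:53590096-53590395, plus strand: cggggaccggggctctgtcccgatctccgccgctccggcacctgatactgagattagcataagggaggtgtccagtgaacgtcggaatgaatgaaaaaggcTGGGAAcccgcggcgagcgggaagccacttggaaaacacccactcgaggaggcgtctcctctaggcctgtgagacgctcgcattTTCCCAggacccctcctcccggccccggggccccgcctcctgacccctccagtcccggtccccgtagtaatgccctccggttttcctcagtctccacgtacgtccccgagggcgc
Nrarp, chr2:25180508-25180807, plus strand: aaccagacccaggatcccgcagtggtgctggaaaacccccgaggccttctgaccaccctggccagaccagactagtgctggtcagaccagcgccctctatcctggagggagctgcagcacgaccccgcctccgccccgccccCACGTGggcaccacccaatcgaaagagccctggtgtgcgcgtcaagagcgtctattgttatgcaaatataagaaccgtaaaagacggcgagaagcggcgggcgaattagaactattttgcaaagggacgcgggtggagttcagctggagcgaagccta
The printed Rbpj window held both orientations of the RBPJ core, starting 149 and 65 bases before the start, and the Nrarp window held an E-box that began 108 bases before its start. Rbpj start site number 2 had a window, not printed, that held TTCCCA alone, 205 bases before that start. The Adam10 window also held an E-box, 64 bases before its start, while those of Notch1, Notch2 and Adam17 held neither motif. Such letters are common. TGGGAA was present in 25.6% of 32851 promoter windows of the same length and CACGTG in 7.15%, so a match is a description of the sequence and not a site of binding.

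In the Runx3_fl-labelled library there were 12968 cells and 146204416 UMIs (random tags by which each captured RNA is counted a single time), against 8953 cells and 75478164 UMIs for the Runx3-labelled library. Cells with 200 to 6000 genes and at most 15% mitochondrial UMIs were kept, 11885 and 8167 in the 2 libraries, with medians of 9573 and 5731 UMIs per cell. The 2 libraries shared 37 barcodes. Runx3 was not lower in macrophage-gated cells of the Runx3-labelled library, at 157 CPM in the Runx3_fl-labelled library against 245 CPM, where CPM is a gene's UMIs scaled to the summed UMIs of the class. Over all kept cells, whose mix of classes differed, Runx3 was at 313 and 195 CPM. Lyz2, the gene whose promoter drives the Cre, was at 2946 and 969 CPM in macrophage-gated, 1824 and 656 CPM in monocyte-gated and 3641 and 1818 CPM in neutrophil-gated cells, lower in the Runx3-labelled library in each of these 3 classes. Xist, expressed from the inactive X chromosome of female cells, was at 212 CPM over all kept cells of the Runx3_fl-labelled library and at 0.183 CPM in the Runx3-labelled library, although the study describes male mice, so the libraries also differ in a way their labels do not state, and this cannot be told apart from the labelled difference. All intervals below are 95% intervals for counting error only, and with 1 library per group no difference has a replicate check or a p-value.

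Cells were sorted into 7 classes by marker genes. Macrophage-gated cells carried a UMI of Csf1r and of C1qa, cDC-gated cells (conventional dendritic cells) Flt3, neutrophil-gated cells Csf3r, NK-gated cells Ncr1, T-gated cells Cd3e and B-gated cells Cd79a, and a cell that passed more than 1 of these gates was left out. Monocyte-gated cells carried Ly6c2 and passed no other gate. This gave 254 and 276 macrophage-gated cells in the Runx3_fl- and Runx3-labelled libraries, with medians of 12785.5 and 6380.5 UMIs. All 7 further macrophage markers, such as Mertk, Cd68 and C1qb, were present in them, at a summed 1829 and 2569 CPM. The summed markers of neutrophils were at 11.97 and 363 CPM in these cells, with Ly6g and Retnlg at 0 in the Runx3_fl-labelled library, those of epithelium at 17.6 and 97.9 CPM, of NK cells at 187 and 11.3 CPM, of T cells at 30.9 and 63.1 CPM, of B cells at 5.35 and 30.2 CPM, of plasma cells at 116 and 216 CPM, of endothelium at 88.8 and 174 CPM, of fibroblasts at 14.2 and 34.3 CPM, of mast cells at 0 and 2.25 CPM and of red cells at 0 and 13.5 CPM. All of these lists except that of NK cells were higher in the Runx3-labelled library, and their part in the results was not tested. The monocyte list was at 2385 and 2547 CPM and the cDC list, which holds the widely expressed H2-Ab1, at 5364 and 4543 CPM. The neutrophil gate also held cells with Csf1r, at 235 and 257 CPM, and T- and B-gated cells were present although the labels give CD11b+ cells, with Itgam, the gene of CD11b, at 43.4 and 27.5 CPM in T-gated cells. The summed neutrophil markers were at 4148 and 39546 CPM in neutrophil-gated and at 65.2 and 4050 CPM in monocyte-gated cells. Red cell markers were at 0.555 and 457 CPM in monocyte-gated cells. These gates were thus not alike in the 2 libraries, and the part of this in their ratios was not tested.

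The target gene Hes1 (ENSMUSG00000022528; protein coding, chromosome 16, 30064384 to 30067796, plus strand) was higher in the Runx3-labelled library in each of the 7 classes. In macrophage-gated cells 37 UMIs gave 11.7 CPM (8.21 to 16.1) in the Runx3_fl-labelled library and 600 UMIs gave 271 CPM (249 to 293) in the Runx3-labelled library. The 2 intervals were far apart, and the ratio was 23.2-fold, or 4.42 in log2 units after 1 CPM was added to each level (4.06 to 5.06 without that addition). Hes1 was number 11 by this ratio among the 11556 genes with at least 10 UMIs over both libraries in macrophage-gated cells, a rank that restates how it was chosen.

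The order of the classes by Hes1 level differed between the libraries. In the Runx3_fl-labelled library, B-gated cells were highest at 60.9 CPM (55.0 to 67.2). Neutrophil-gated cells at 16.0 CPM, NK-gated cells at 15.8, monocyte-gated cells at 13.1 and macrophage-gated cells at 11.7 CPM followed, with overlapping intervals between neighbours. Then came cDC-gated cells at 7.61 CPM (6.27 to 9.15), still overlapping the macrophage-gated interval, and T-gated cells were lowest at 2.60 CPM (2.13 to 3.14). In the Runx3-labelled library, macrophage-gated cells were highest at 271 CPM, above neutrophil-gated cells at 183 CPM (175 to 191), with the monocyte-gated cells at 170 CPM (160 to 179), whose interval overlapped that of the neutrophil-gated cells, then B-gated cells at 126 CPM (118 to 134), cDC-gated cells at 74.1 CPM (67.2 to 81.7) and NK-gated cells at 72.8 CPM (57.3 to 91.1), which overlapped each other, and T-gated cells at 46.2 CPM (39.1 to 54.3). Beyond counting error, macrophage-gated cells were thus below B-gated and above T-gated cells in the Runx3_fl-labelled library, and above all 6 other classes in the Runx3-labelled library. The log2 ratio was 4.42 in macrophage-gated, 3.71 in T-gated, 3.59 in monocyte-gated, 3.43 in neutrophil-gated, 3.13 in cDC-gated, 2.13 in NK-gated and 1.03 in B-gated cells.

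**Figure D1:**
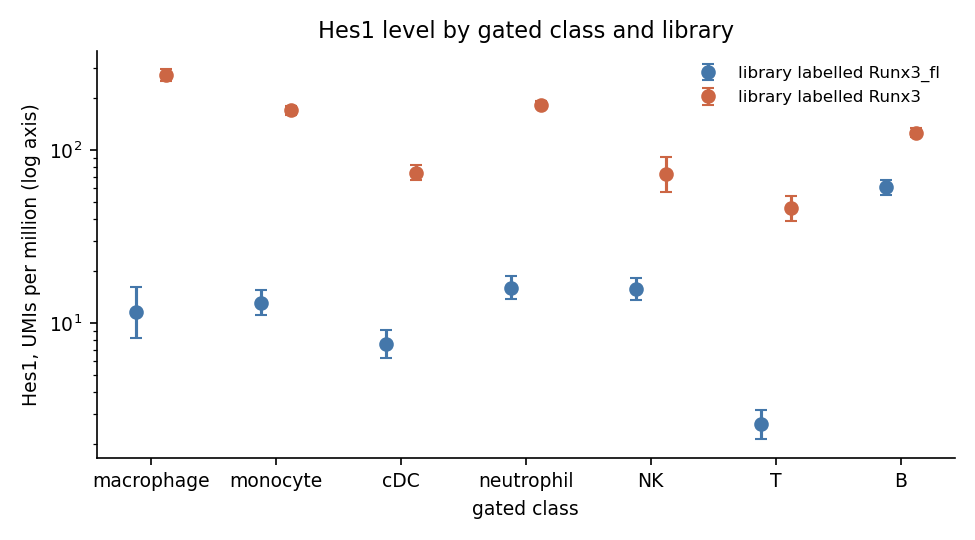
Hes1 level in CPM (log axis) by gated class, with 1 point per library and bars for the exact 95% Poisson interval. The Runx3-labelled library lies above the Runx3_fl-labelled library in every class, from 126 against 60.9 CPM in B-gated cells to 271 against 11.7 CPM in macrophage-gated cells.

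The genes that were higher in every class, as Hes1 was, were counted. Of 10513 genes with at least 10 UMIs over both libraries in every class, 66 (0.628%) were at least 2-fold higher in the Runx3-labelled library in all 7 classes, and Hes1 was number 60 of these by its lowest ratio, that of the B-gated cells. The list was led by Ngp and Camp, genes of neutrophil granules, and also held S100a8, S100a9, Lcn2 and Retnlg of neutrophils, Muc2 of goblet cells and the heat shock gene Hspa1b. Genes of other kinds were in it too, among them Nkain2 at number 3, Dgkb at number 6 and the interferon response genes Oas2, Ifit3 and Irf7. As background, RNA set free from broken cells reaches droplets of all classes at a like level, and 2 genes of known source were set beside Hes1. In the Runx3-labelled library, the neutrophil gene S100a8 was at 71.6% to 79.2% of its macrophage-gated level in T-, B- and cDC-gated cells and at 58.5% in NK-gated cells, classes that are not known to make it. The macrophage gene C1qa was at 0.495% to 1.53% of its macrophage-gated level in these 4 classes. C1qa is itself a marker of the macrophage gate, and cells with both C1qa and Csf1r were left out of the 4 classes. The gates therefore set part of its contrast, and it is not a free measure of how little RNA leaked. Hes1 had values between those of the 2 genes, at 17.1% of the macrophage-gated level in T-gated, 26.9% in NK-gated, 27.4% in cDC-gated and 46.5% in B-gated cells. How much of the Hes1 level was free RNA was not tested.

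The higher level came with more cells that held a Hes1 UMI and with more UMIs in such cells. After each cell was thinned to 2000 UMIs, a Hes1 UMI was found in 7 of 248 macrophage-gated cells of the Runx3_fl-labelled library, or 2.82% (Clopper-Pearson interval 1.14 to 5.73), and in 62 of 226 of the Runx3-labelled library, or 27.4% (21.7 to 33.7), with 6 and 50 cells left out as too shallow. Without thinning the shares were 7.48% and 48.2%. T-gated cells, the class with the lowest share, had 0.461% (0.245 to 0.786) and 5.57% (3.44 to 8.47) after thinning, at median depths of 12719.5 and 7261 UMIs, so the macrophage-gated share stood above the T-gated share in both libraries. The macrophage-gated interval of the Runx3_fl-labelled library overlapped those of the monocyte-gated (2.65%), neutrophil-gated (2.76%) and NK-gated cells (2.17%) and lay under that of the B-gated cells (9.46%, 6.60 to 13.02). Of the monocyte-gated cells 65 and 810 were too shallow to be thinned. In the Runx3-labelled library the shares were 19.0% in monocyte-gated, 19.1% in neutrophil-gated, 14.6% in B-gated, 12.1% in NK-gated and 9.03% in cDC-gated cells. Among macrophage-gated cells with a Hes1 UMI, before thinning, the mean was 1.95 UMIs in 19 cells and 4.51 UMIs in 133 cells. At least 5 Hes1 UMIs were found in 2 of 254 cells and in 42 of 276 cells, and the highest cell had 6 and 33 UMIs. The Runx3-labelled library held these higher counts at the lower median depth.

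**Figure D2:**
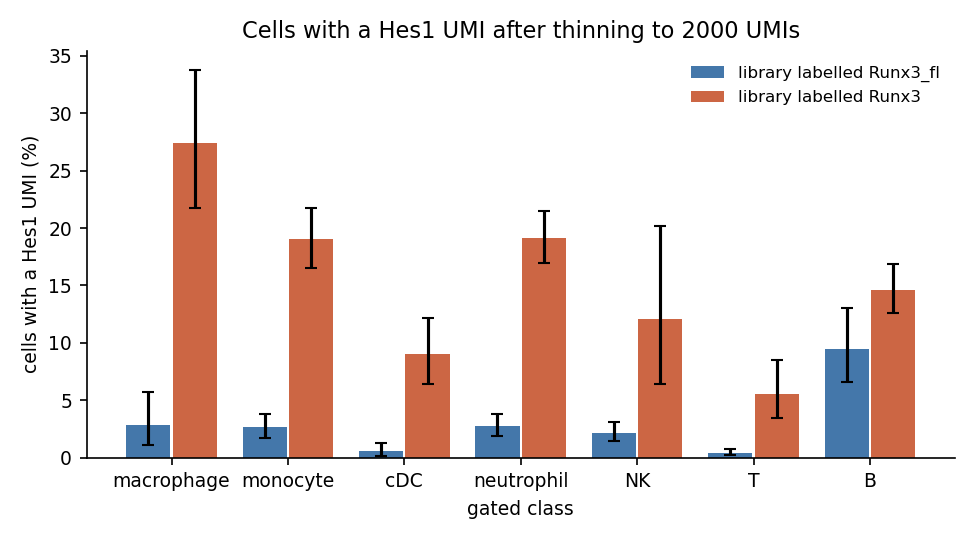
Share of cells (percent) with at least 1 Hes1 UMI after each cell was thinned to 2000 UMIs, by gated class and library, with exact 95% Clopper-Pearson intervals as bars. Macrophage-gated cells go from 2.82% to 27.4%, the widest gap, and B-gated cells from 9.46% to 14.6%, the narrowest fold.

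The macrophage-gated cells were next divided by other genes and by depth. In cells with a Ly6c2 UMI, the mark of monocytes and of cells newly made from them, Hes1 was at 11.4 and 279 CPM in the Runx3_fl- and Runx3-labelled libraries, and in cells without it at 12.2 and 230 CPM. In cells with a UMI of the inflammatory genes Nos2, Il6 or Il12b it was at 7.31 and 153 CPM, and in cells without them at 19.6 and 317 CPM. Within each library the level was therefore lower in the cells that carried these genes, and the log2 ratios between the libraries were 4.21 (3.59 to 5.28) and 3.95 (3.40 to 4.70), with intervals that overlapped. The 2 sets were not matched for depth, and deeper cells have more chance to hold such a UMI. In cells with a UMI of Mrc1, Cd163 or Cx3cr1, genes of resident macrophages, the levels were 8.52 and 262 CPM, and in cells without them 14.1 and 285 CPM. In 4 bins of UMIs per cell the log2 ratio ran from 3.12 in the second-lowest bin (2.31 to 4.14) to 5.08 in the deepest (4.37 to 6.48), and Hes1 was higher in the Runx3-labelled library in each. Within each library Hes1 was lowest in the deepest bin, at 5.31 and 213 CPM, against 27.9 (on 2 UMIs) and 371 CPM in the shallowest.

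**Figure D3:**
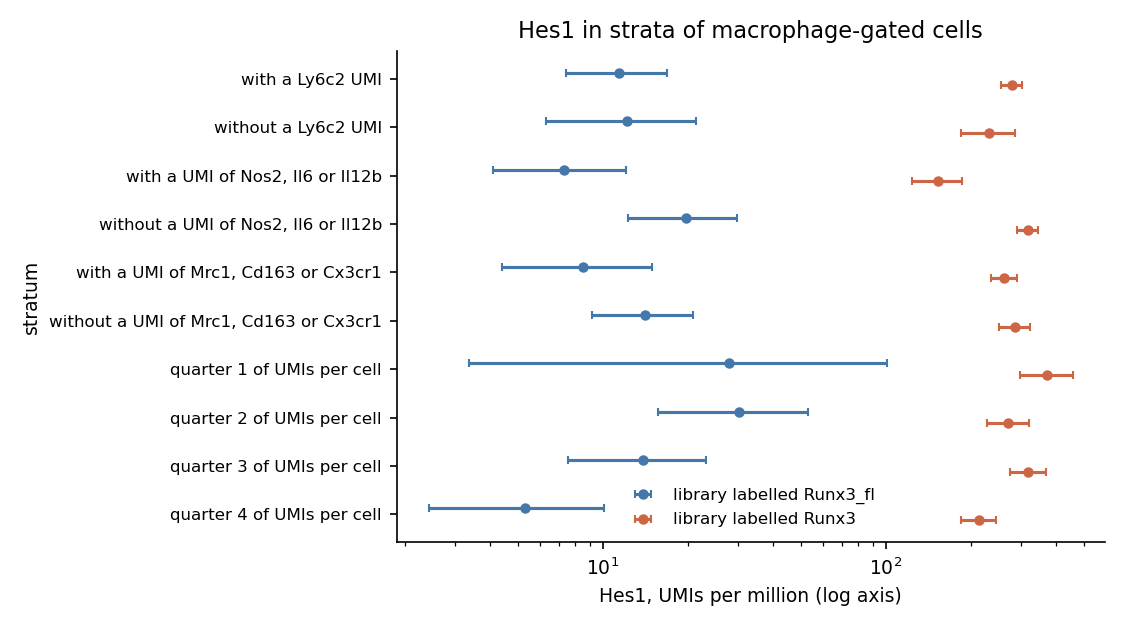
Hes1 level in CPM (log axis) in strata of the macrophage-gated cells, with 1 point per library and exact 95% Poisson intervals, and the last 4 strata run from the lowest to the highest UMIs per cell. In each stratum the interval of the Runx3-labelled library lies wholly above that of the Runx3_fl-labelled library, for example 153 against 7.31 CPM in cells with a UMI of Nos2, Il6 or Il12b.

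Other gates were then divided, a choice made after the values were seen. B-gated cells with at least 10 UMIs of Jchain, a gene of plasma cells, had Hes1 at 62.2 and 300.2 CPM, with a log2 ratio of 2.25 (2.06 to 2.48), and B-gated cells with fewer at 54.3 and 89.5 CPM, with 0.71 (0.33 to 1.14). The cells with high Jchain were 202 of 353 B-gated cells in the Runx3_fl-labelled library and 70 of 1243 in the Runx3-labelled library, so the low ratio over all B-gated cells was set against a different mix. Neutrophil-gated cells with a Csf1r UMI had Hes1 at 12.2 and 219 CPM, with a log2 ratio of 4.07 (3.87 to 4.49), and those without at 26.2 and 115 CPM, with 2.09 (1.78 to 2.51). Cells that passed both the macrophage and the neutrophil gate, 368 and 672, had 18.2 and 261 CPM.

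Of the receptors, Notch1 and Notch2 were detected in all 7 classes. Notch1 (ENSMUSG00000026923; chromosome 2, 26457903 to 26516663, minus strand) was at 52.9 CPM (45.2 to 61.6) and 85.7 CPM (73.9 to 98.8) in macrophage-gated cells of the Runx3_fl- and Runx3-labelled libraries. Its log2 ratio was 0.68 (0.39 to 1.00). The median over all tested genes was 0.24 in these cells, and Notch1 was at 0.44 once that median gene was set to 0. Notch1 was highest in T-gated cells, whose development depends on it, at 82.4 and 100.5 CPM, and lowest in cDC-gated cells, at 16.8 and 27.6 CPM, where the ratio was also 0.68 (0.42 to 1.01). The ratio was 0.53 in monocyte-gated, 0.55 in neutrophil-gated and 0.28 in T-gated cells, and the intervals of the NK-gated (-0.19 to 0.57) and B-gated cells (-0.13 to 0.40) included 0. In the annotation Notch1 overlaps Mir6996 on its own strand and 0610009E02Rik and Gm13568 on the other, so its level is uncertain to that degree.

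Notch2 (ENSMUSG00000027878; chromosome 3, 98013527 to 98150361, plus strand), the receptor of marginal zone B cells and of Notch-dependent dendritic cells, was at 170 CPM (156 to 185) and 153 CPM (137 to 171) in macrophage-gated cells. Its log2 ratio of -0.15 (-0.35 to 0.05, and 0.087 with the macrophage gate alone) was -0.39 once the median gene was set to 0, so the receptor with the higher level did not share the direction of Hes1 there. In B-gated cells Notch2 was at 48.4 and 112 CPM, a log2 ratio of 1.19 (1.02 to 1.40), and with Hes1 it was the member that passed 2-fold in that class. The mix of plasma and other B-gated cells differed between the libraries as given above, and within each kind Notch2 was not 2-fold higher. Notch2 was at 36.2 and 21.2 CPM in B-gated cells with at least 10 Jchain UMIs, with -0.74 (-1.36 to -0.22), and at 109 and 130.4 CPM in those with fewer, with 0.25 (-0.03 to 0.54). In cDC-gated cells Notch2 was at 100.3 and 180 CPM, with a ratio of 0.83 (0.72 to 0.96), in T-gated cells at 70.6 and 110.5 CPM, with 0.64, and in neutrophil-gated cells at 228 and 233 CPM, with 0.03 (-0.05 to 0.11). Notch2 overlaps the genes Gm42819 and Gm42820 on its own strand and is uncertain in the same way.

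Both sheddases differed by less than 2-fold in every class. Adam10 (ENSMUSG00000054693; chromosome 9, 70678997 to 70780229, plus strand), which makes the cut that follows binding of a ligand, was at 60.2 CPM (51.9 to 69.3) and 74.0 CPM (63.1 to 86.2) in macrophage-gated cells, with a log2 ratio of 0.29 (-0.01 to 0.61) whose interval included 0. Adam17 (ENSMUSG00000052593; chromosome 12, 21323509 to 21373632, minus strand), which sheds many surface proteins including tumour necrosis factor, was at 214 CPM (198 to 231) and 251 CPM (231 to 273), with 0.23 (0.07 to 0.40). Both ratios were close to the median of all genes, that of Adam17 was -0.012 once the median gene was set to 0, and that of Adam10 was -0.028 in thinned cells. Over the 7 classes the ratio of Adam10 ran from -0.22 in T-gated to 0.71 in B-gated cells, and that of Adam17 from -0.15 in neutrophil-gated to 0.23 in macrophage-gated cells. The higher Adam10 level in the B gate was in neither of its parts, with ratios of -1.49 (-2.11 to -0.999) at 10 or more Jchain UMIs and 0.05 (-0.20 to 0.31) at fewer. Adam17 in the neutrophil gate had 0.08 (-0.01 to 0.18) with a Csf1r UMI and -0.69 (-0.86 to -0.54) without. Adam17 overlaps Iah1 and Gm22766 on the other strand.

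Rbpj (ENSMUSG00000039191; chromosome 5, 53466152 to 53657362, plus strand), the DNA-binding partner of all Notch receptors, in macrophage-gated cells was at 302 CPM (283 to 322) and 353 CPM (329 to 379). The log2 ratio was 0.22 (0.09 to 0.36), and -0.019 once the median gene was set to 0. Among the classes its level was highest in cDC-gated cells, some of which are known to require it, at 620 CPM (607 to 633) and 419 CPM (402 to 436), and there the ratio was -0.56 (-0.63 to -0.50), lower in the library in which Hes1 was higher. The ratio was -0.23 (-0.30 to -0.16) in neutrophil-gated and 0.81 (0.65 to 0.99) in B-gated cells, and the intervals of the monocyte-gated and NK-gated cells included 0. The B-gated direction turned within the gate. Rbpj was at 40.9 and 91.2 CPM in B-gated cells with at least 10 Jchain UMIs, with 1.14 (0.84 to 1.48), and at 162 and 111 CPM in those with fewer, with -0.54 (-0.78 to -0.30). Rbpj overlaps Gm10441 and Gm40304 on the other strand.

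The other targets were scarce in macrophage-gated cells. Hey1 (ENSMUSG00000040289; chromosome 3, 8663359 to 8667256, minus strand), a repressor of the same family as Hes1, had 1 UMI in the Runx3_fl-labelled library and 6 UMIs in the Runx3-labelled library, a ratio of 8.59-fold with a counting interval of 0.06 to 8.63 on the log2 scale. Nrarp (ENSMUSG00000078202; chromosome 2, 25180758 to 25183339, plus strand), which binds the Notch and RBPJ complex and holds it back, had 3 and 6 UMIs. Neither reached the minimum of 10 UMIs in these cells, so a difference of either gene was hardly detectable at this depth. In the 3 classes in which it reached 10 UMIs, Hey1 had 3 and 12 UMIs in monocyte-gated, 2 and 12 in cDC-gated and 10 and 9 in T-gated cells, and the log2 ratios with 1 CPM added were 1.02, 1.48 and 1.61. All 3 passed 2-fold in the direction of Hes1, at levels no higher than 2.81 CPM. Below the minimum, it had 0 and 9 UMIs in neutrophil-gated, 6 and 2 in NK-gated and 3 and 5 in B-gated cells. Nrarp had ratios of either sign. It was highest in NK-gated cells, at 110.4 CPM (104 to 117) and 117 CPM (97.0 to 139), where the 2 libraries overlapped, at 14.5 and 10.2 CPM in monocyte-gated cells (log2 ratio -0.47, -0.92 to -0.11), at 12.04 and 7.80 CPM in T-gated cells (-0.57, -1.27 to -0.05) and at 5.61 and 9.24 CPM in neutrophil-gated cells (0.63, 0.24 to 1.21). In the neutrophil gate the direction turned with Csf1r, at 3.47 and 11.3 CPM in cells with a Csf1r UMI (1.46, 1.05 to 2.39) and at 11.2 and 5.39 CPM in cells without (-0.93, -1.92 to -0.22). The summed NK markers were at 1137 and 164 CPM in monocyte-gated, 1871 and 159 CPM in T-gated and 223 and 21.7 CPM in neutrophil-gated cells. The part of NK content in the Nrarp levels of these gates was not tested. Over all kept cells Nrarp was at 28.3 and 9.79 CPM, while NK-gated cells were 10.9% and 1.24% of kept cells and cells of no gate had 89.8 and 22.7 CPM. Nrarp overlaps Gm38287 on the other strand.

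**Figure D4:**
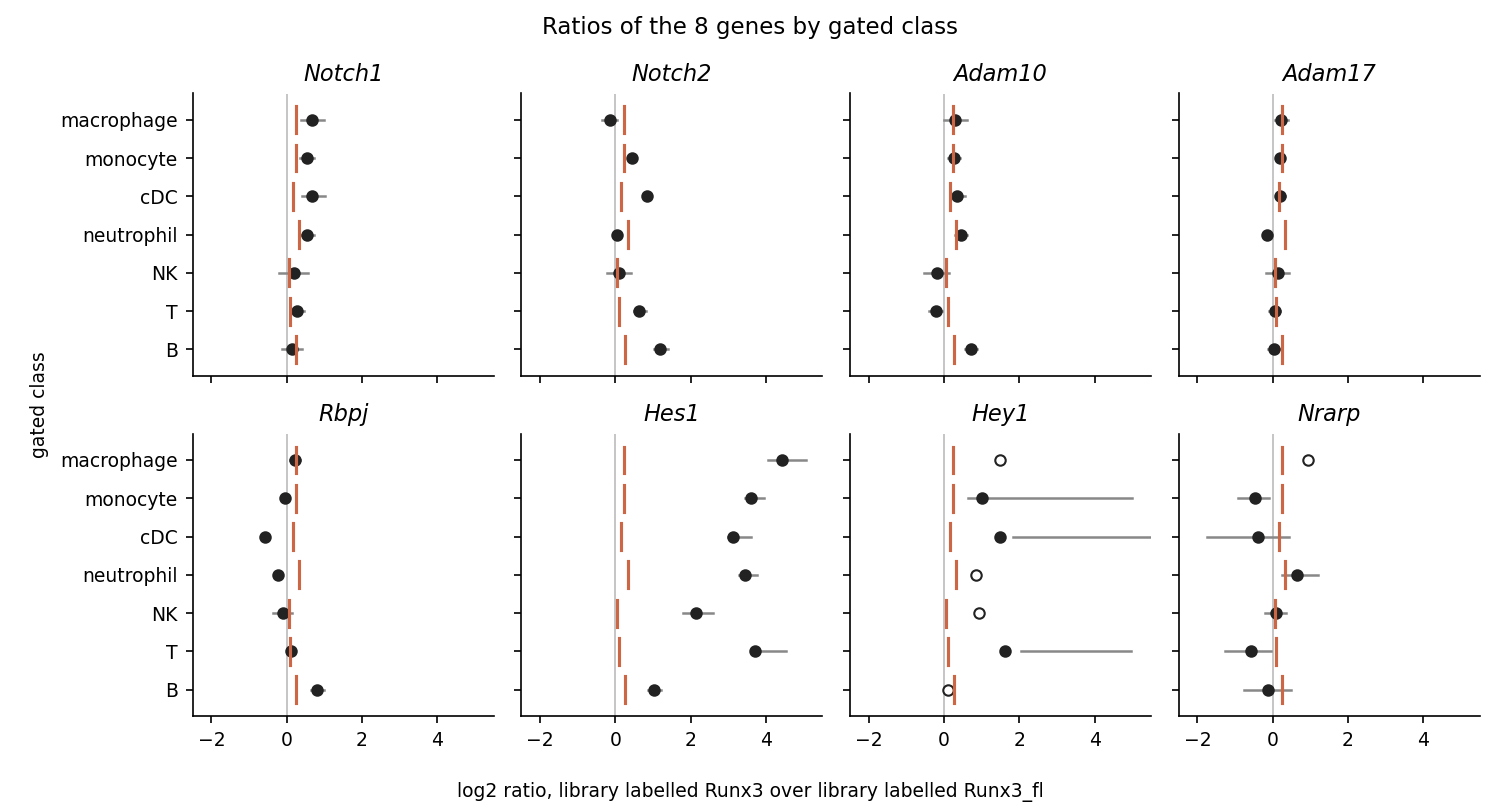
Log2 ratio (Runx3-labelled over Runx3_fl-labelled library) for the 8 genes in 7 gated classes, with 95% counting intervals as grey lines, open points for genes under 10 UMIs (drawn without interval) and an orange tick at the median of all genes tested in the class. The ratio has 1 CPM added and the interval has not, so points of scarce genes such as Hey1 can lie outside their line, and that of Hey1 in cDC-gated cells runs past the axis to 7.20. Hes1 lies between 1.03 and 4.42. Notch1, Rbpj, Adam10 and Adam17 lie between -0.56 and 0.81, while Notch2 reaches 1.19 in B-gated and Hey1 1.61 in T-gated cells.

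The members were then counted against all genes. In macrophage-gated cells 6 of the 8 members had at least 10 UMIs, and 1 of these, Hes1, was at least 2-fold higher in the Runx3-labelled library, against 15.5% of all 11556 genes tested, while 0 were 2-fold lower, against 3.53%. In monocyte-gated cells 2 of 8 passed, Hes1 and Hey1, against a background of 14.8% higher and 2.27% lower, and in cDC-gated cells the same 2 of 8, against 9.14% higher and 1.88% lower. In neutrophil-gated cells 1 of 7 passed, Hes1, against 13.6% higher and 2.5% lower, and in NK-gated cells again 1 of 7, against 7.4% higher and 5.95% lower. In T-gated cells 2 of 8 passed, Hes1 and Hey1, against 13.5% higher and 7.26% lower, and in B-gated cells 2 of 7, Hes1 and Notch2, against 20.0% higher and 12.7% lower. The call of Notch2 ended within both parts of the B gate when it was split by Jchain, as given above. None of the members tested was 2-fold lower in any of the 7 classes. With Hes1 set aside as chosen on its ratio, 0 or 1 member passed in a class, which is near the background. Without Hes1, the median log2 ratio of the members tested was 0.23 in macrophage-gated cells, against 0.24 for all genes. It was 0.26 in monocyte-gated (0.24 for all genes), 0.36 in cDC-gated (0.16), 0.24 in neutrophil-gated (0.33), 0.09 in NK-gated (0.05), 0.12 in T-gated (0.10) and 0.42 in B-gated cells (0.26).

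The wider pathway was described with a list of 62 genes, chosen by name and grouped by role. In macrophage-gated cells 46 had at least 10 UMIs, of which 4 were at least 2-fold higher in the Runx3-labelled library (Hes1, Dtx1, Jag2 and Neurl3) and 2 at least 2-fold lower (Aph1b and Poglut1), against the same background of 15.5% and 3.53%. Without Hes1, which was chosen on its ratio, 3 of 45 were higher and 2 lower. The median log2 ratio of the list was 0.22, and 0.20 without the members, against 0.24 for all genes tested. Apart from Hes1, the genes past 2-fold at 10 CPM or more were 3. Neurl3, a ubiquitin ligase of the neuralized family, was at 62.4 CPM (54.0 to 71.7) and 139 CPM (124 to 156), with a log2 ratio of 1.15. Poglut1, which adds glucose to the repeats of the Notch receptor outside the cell, was at 23.6 CPM (18.6 to 29.6) and 8.57 CPM (5.16 to 13.4), with -1.36. Aph1b, a subunit of gamma-secretase, was at 47.6 CPM (40.3 to 55.8) and 19.4 CPM (14.03 to 26.1), with -1.25, and its near-identical copy Aph1c was at 209.8 and 110.03 CPM, with -0.92, so reads of the pair could be split between them and each is uncertain.

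By role, the 7 ligand genes held 17 and 33 UMIs in all in macrophage-gated cells, with 3 of them (Dll3, Dlk1 and Dlk2) at 0 in both libraries, and only Jag1, at 14 and 19 UMIs, and Jag2, at 3 and 10, reached the minimum. The 7 gamma-secretase genes had a median ratio of -0.16, with 0 higher and 1 lower. The 5 genes of the nuclear complex, Rbpj and Maml1, Maml2 and Maml3 among them, had a median of 0.03 and none passed 2-fold. The corepressors, which act with RBPJ or with HES proteins to shut genes off, had a median of 0.62 over the 9 tested, the highest being Tle4 at 141 and 242 CPM, and again none passed 2-fold. Of the 9 targets in the list 3 were tested, Hes1, Dtx1 and Hes6, with a median of 1.89 that is the value of Dtx1. At least 2-fold higher were 2 of these 3, Hes1 and Dtx1, against 15.5% of all genes. Hes1 was chosen on its ratio, so this count cannot be read against that share. With Hes1 set aside, Dtx1 was 2-fold higher and Hes6 was not. Hes6 was at 8.82 and 9.47 CPM (log2 ratio 0.09, -0.79 to 0.97), and Dtx1, a ubiquitin ligase that is a Notch target, had 5 and 19 UMIs, with a ratio of 1.89 (0.97 to 4.22).

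Dtx1 was looked at in every class after its macrophage value was seen. It was at 19.8 and 126 CPM in B-gated cells, a log2 ratio of 2.61 (2.41 to 2.95), and at 36.0 and 60.2 CPM in T-gated cells, with 0.73 (0.52 to 0.96). In the myeloid classes it was scarce, with 21 and 104 UMIs in monocyte-gated (2.33), 3 and 26 in cDC-gated (2.24) and 6 and 51 in neutrophil-gated cells (1.81), and the NK-gated cells had 10 and 4 UMIs (1.35, with an interval of -0.03 to 3.89 that included 0). Split by Jchain, the B-gated ratio was 1.77 (0.88 to 3.85) on 8 and 11 UMIs in cells with at least 10 Jchain UMIs and 0.44 (0.17 to 0.73) in those with fewer, at 111 and 151 CPM. The Dtx1 level was higher in the Runx3-labelled library in each class, with B-gated cells highest there, and the Runx3-labelled library also held more B-gated cells, 15.2% against 2.97% of kept cells. The part of free RNA in the scarce counts was not tested.

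**Figure D5:**
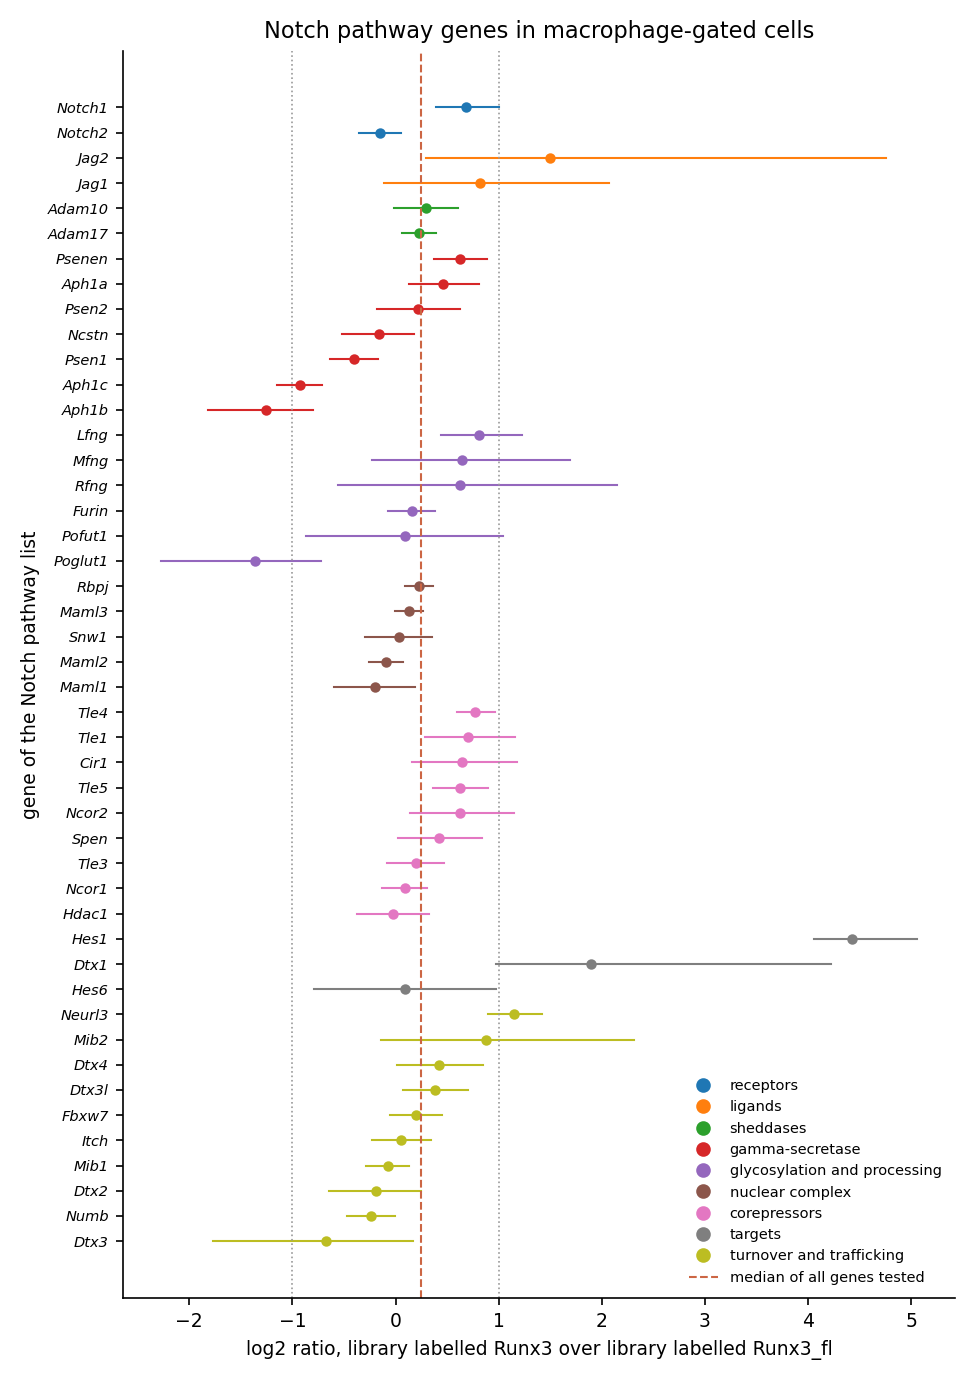
Log2 ratio of the Runx3-labelled library over the Runx3_fl-labelled library for the 46 tested genes of the Notch pathway list in macrophage-gated cells, coloured by role, with 95% counting intervals. The dashed line is the median of all genes tested (0.24) and the dotted lines are 2-fold. Hes1 at 4.42 stands far from the others, which lie between -1.36 (Poglut1) and 1.89 (Dtx1).

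In the other classes the list without the members had 54 genes. Its median was 0.23 in monocyte-gated cells (0.24 over all genes), 0.27 in cDC-gated (0.16), 0.32 in neutrophil-gated (0.33), 0.10 in NK-gated (0.05), 0.11 in T-gated (0.10) and 0.45 in B-gated cells (0.26). In B-gated cells 10 of 43 were at least 2-fold higher and 2 lower (12.7% of all genes). Higher were 3 of 45 in monocyte-gated (14.8% of all genes), 3 of 46 in cDC-gated (9.14%) and 4 of 44 in neutrophil-gated cells (13.6%). In NK-gated cells it was 3 of 42 (7.4%) and in T-gated cells 4 of 45 (13.5%). Lower were 0 in monocyte-gated (2.27%), 2 in cDC-gated (1.88%), 3 in neutrophil-gated (2.5%), 3 in NK-gated (5.95%) and 1 in T-gated cells (7.26%). The B-gated count is to be read beside the 20.0% of all genes that were 2-fold higher in that class and beside its different mix of cells. Of the target genes tested, Hes1 among them, 4 of 6 were 2-fold higher in monocyte-gated (14.8% of all genes) and 3 of 6 in cDC-gated cells (9.14%). The counts were 3 of 5 in neutrophil-gated (13.6%), 2 of 4 in NK-gated (7.4%), 2 of 6 in T-gated (13.5%) and 2 of 4 in B-gated cells (20.0%). Hes1, chosen on its ratio between the libraries, was in each of these counts, so they cannot be read as they stand against the background. Besides Hes1 they held Hes7, Hey1 and Dtx1 in monocyte-gated, Hey1 and Dtx1 in cDC-gated and Hes7 and Dtx1 in neutrophil-gated cells. In NK- and B-gated cells only Dtx1 was left and in T-gated cells only Hey1, with Hey1 scarce as given above.

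Cells of 1 library with and without a Hes1 UMI were compared to see whether the other members went with Hes1 from cell to cell. In macrophage-gated cells of the Runx3-labelled library, 133 cells had a Hes1 UMI and 143 had none. Notch1 was at 95.02 and 73.4 CPM in the 2 sets, Notch2 at 141 and 170 CPM, Rbpj at 340 and 371 CPM and Adam17 at 244 and 261 CPM, and each interval of the ratio included 0. Adam10 was at 62.6 and 89.1 CPM, lower in the cells with Hes1, with a log2 ratio of -0.50 (-0.97 to -0.05). Deeper cells have more chance to hold a Hes1 UMI, so the comparison was repeated at equal depth. After thinning to 2000 UMIs, 62 cells with and 164 without remained, and no interval of a member excluded 0, that of Adam10 running from -1.64 to 0.73. The pathway list without Hes1 had a median of -0.05 before and -0.18 after thinning, against 0.01 and -0.01 for all genes. In the Runx3_fl-labelled library 19 cells had a Hes1 UMI and 235 had none, and Rbpj was at 219 and 309 CPM, with -0.49 (-0.93 to -0.09), while after thinning only 7 cells with a Hes1 UMI remained and that interval ran from -1.37 to 1.53.

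Last, the genes whose levels went most with Hes1 over the 14 sums (7 classes in 2 libraries) were sought among the 5643 genes that reached 50 CPM in any of these sums. They were Rhob (Pearson r 0.94), a small GTPase, Jun (0.93) and Atf4 (0.92), transcription factors induced by stress, Chd9 (0.90), a chromatin remodeller, and Fgfr2 (0.88), a growth factor receptor. These points share libraries and depth, so the values describe the 14 sums and carry no test. Of the members, Hey1 had r 0.69, Notch2 0.32, Adam10 0.29, Notch1 0.20, Adam17 0.19, Nrarp -0.05 and Rbpj -0.15. A list of 20 immediate early genes, which cells turn on soon after a stimulus or after handling of the tissue, was counted in the same way. In macrophage-gated cells 10 of the 20 were at least 2-fold higher in the Runx3-labelled library and 0 lower, with a median log2 ratio of 1.00 against 0.24 for all genes, and Jun was at 84.1 and 456 CPM, Fos at 309.6 and 781 CPM and Egr1 at 112 and 330 CPM. The background for that count is the 15.5% given above. Of the 20 genes, 11 were 2-fold higher in monocyte-gated cells (background 14.8%), 8 in cDC-gated (9.14%), 4 in neutrophil-gated (13.6%), 2 in NK-gated (7.4%), 16 in T-gated (13.5%) and 17 in B-gated cells (20.0%), so the NK-gated and neutrophil-gated counts lay near the background. The order of these counts and that of the Hes1 ratios were alike in some classes and not in others. The B-gated cells, with the highest count, had the lowest Hes1 ratio at 1.03. The T-gated cells, with the next highest count, had 3.71, below the macrophage-gated cells alone. The NK-gated cells, with the lowest count, had 2.13. The mix of the B-gated cells differed between the libraries, as given above, and the immediate early counts were not split by Jchain. Within the Runx3-labelled library, the list had a median of 0.35 in macrophage-gated cells with a Hes1 UMI over those without (0.40 after thinning), with 2 of 20 past 2-fold before thinning and 0 of 19 after. The part of these genes in the Hes1 level was not tested.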

How the data were processed

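Single cells of mouse colon were profiled by the authors with the 10x Genomics 3' kit, version 3 per the labels. The deposited files hold UMI counts per gene and cell, whole numbers that were not normalized, from Cell Ranger 7.1.0 per the file headers, and the submitters' processing notes name Seurat 4 and the build mm10. Only barcodes called as cells are in them.

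The 8 members, the lists and the gates were chosen with earlier results of these data known, and the named genes were the members, list genes at least 2-fold different in macrophage-gated cells at 10 CPM or more, and the 5 genes most like Hes1 over the sums. Cells with 200 to 6000 genes and at most 15% mitochondrial UMIs were kept. The upper limit was the only treatment of doublets. Within a class the UMIs of its cells were added up, and levels are CPM with exact Poisson intervals. Ratios are of the Runx3-labelled over the Runx3_fl-labelled library, in log2 units with 1 added to each CPM, with exact conditional binomial intervals computed without the added 1. A gene was tested, that is counted, from 10 UMIs over both libraries in the class. Shares of cells were taken after thinning to 2000 UMIs, with Clopper-Pearson intervals, which left out 616 and 1868 kept cells. The intervals are at 95%. With 1 library per group no test was run. The ratio and interval steps were tested on simulated data. Coordinates are those of GENCODE M21 on GRCm38, matched by gene ID. The alternatives were other gates, depths, filters, added values and weights. Of the 63 names of the pathway list 62 were found. The scripts used scipy 1.17.1 and numpy 2.4.6 for the statistics, pandas 2.3.3 for tables and matplotlib 3.10.9 for plots, under Python 3.11.15.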

Additional observations from a re-analysis of the deposited data

Results flagged for a closer look

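Some members had ratios of opposite sign in different classes, with counting intervals away from 0 in both, and these differences were not tested. The log2 ratio of Rbpj was 0.81 in B-gated and -0.56 in cDC-gated cells. That of Nrarp was 0.63 in neutrophil-gated and -0.57 in T-gated cells, that of Adam10 was 0.71 in B-gated and -0.22 in T-gated cells, and that of Adam17 was 0.23 in macrophage-gated and -0.15 in neutrophil-gated cells. The last of these gave -0.012 and -0.48 once the median gene of each class was set to 0, so the signs no longer differed. The other values of the B and neutrophil gates were also not those of their parts, split after the data were seen. In B-gated cells with fewer than 10 Jchain UMIs Rbpj was at -0.54 and Adam10 at 0.05, and with at least 10 they were at 1.14 and -1.49. In neutrophil-gated cells with a Csf1r UMI Nrarp was at 1.46 and Adam17 at 0.08, and without at -0.93 and -0.69. The summed NK markers of the T gate also differed between the libraries, as given above.

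Hes1 was also seen in cells outside the 7 classes. In cells that passed no gate it was at 16.9 CPM in the Runx3_fl-labelled library and at 223 CPM in the Runx3-labelled library, and in cells that passed more than 1 gate at 26.2 and 205 CPM.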

How the results depend on the processing

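The Hes1 log2 ratio of 4.42 in macrophage-gated cells ran from 3.70 to 4.53 over 10 alternatives and left its interval in 3 of them, at 3.70 with 10 CPM added, 3.99 with the macrophage gate alone and 4.01 with equal weights of the strata by Ly6c2 and inflammatory genes. Subtracting the B-gated level could not give a Hes1 ratio, since 60.9 CPM in B-gated cells of the Runx3_fl-labelled library is above the 11.7 CPM of the macrophage-gated cells. The count of members at least 2-fold higher was 1 in all 11 alternatives, but after that subtraction it was 1 of 4 and the gene was Notch1, with 21.4 and 51.1 CPM left. The count of pathway genes was 4 and ran from 2 to 6, with 2 when 10 CPM were added and 2 of 22 after the subtraction. The share of macrophage-gated cells with a Hes1 UMI was 7.48% and 48.2% without thinning. With the median gene at 0 the signs of Rbpj (-0.019) and Adam17 (-0.012) turned. Splits chosen after seeing the data turned Notch2 to -0.74 and Adam10 to -1.49 in B-gated cells with at least 10 Jchain UMIs, Rbpj to -0.54 in those with fewer, Nrarp to -0.93 in neutrophil-gated cells without Csf1r and Adam17 to 0.081 in those with it. Notch1, at 0.68, was 0.35 with the macrophage gate alone and 0.38 with equal weights of the strata, and at most 0.86, as a mean over cells. Values whose interval included 0 also turned, Notch2 to 0.087 with the macrophage gate alone, Adam10 to -0.028 in thinned cells and -0.091 as a mean over cells, and Nrarp to -0.15 at its lowest. The share of all genes past 2-fold and the Hes1 ratio in monocyte-gated cells with Csf1r (3.90) moved little. No paired analysis was possible because each group had 1 library. Depth limits Hey1 and Nrarp, with at most 6 UMIs per library in macrophage-gated cells.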

Other observations

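Il6, Il12b and Cxcl1, inflammatory genes known as background to be held down by HES proteins in activated macrophages, were all lower in macrophage-gated cells of the Runx3-labelled library. Il6 was at 187 CPM in the Runx3_fl-labelled library and 37.4 CPM in the Runx3-labelled library, Il12b at 134.5 and 17.6 CPM, Cxcl1 at 296 and 102 CPM, and Nos2, which makes nitric oxide, at 72.4 and 9.02 CPM. All 3 of Il6, Il12b and Cxcl1 were also at least 2-fold lower in monocyte-, cDC- and neutrophil-gated cells, where 2.27%, 1.88% and 2.5% of all genes were. So were 2 of 3, Il6 and Il12b, in NK-gated cells (5.95%), and 1 of 3, Il12b, in T-gated (7.26%) and in B-gated cells (12.7%). The difference between these classes was not tested. Within the Runx3-labelled library the cells with a Hes1 UMI did not have less of Il6 beyond counting error, with 32.5 CPM against 44.0 CPM and a log2 ratio of -0.43 (-1.10 to 0.22). Cxcl1 was at 106.9 and 96.4 CPM there, with 0.15 (-0.24 to 0.55), and after thinning at 16.1 and 73.2 CPM, with -2.11 (-5.31 to -0.17), lower in the cells with Hes1. Il12b was at 23.8 and 9.43 CPM before thinning, higher in the cells with Hes1, with 1.25 (0.22 to 2.59), and after thinning its interval ran from -6.70 to 1.86. Mrc1, a gene of resident macrophages, was at 221 CPM in cells with and 122 CPM in cells without a Hes1 UMI, with 0.86 (0.54 to 1.19), and after thinning at 137 and 183 CPM, with -0.41 (-1.29 to 0.38), an interval that included 0. In the Runx3_fl-labelled library 19 cells had a Hes1 UMI. Il6 was there at 63.3 CPM in cells with and 197 CPM in cells without a Hes1 UMI, with -1.62 (-2.48 to -0.90). Mrc1 was at 177 and 57.5 CPM, with 1.61 (1.10 to 2.12), while the intervals of Il12b and Cxcl1 included 0. After thinning only 7 cells with a Hes1 UMI remained in that library, and each of these intervals included 0.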
